A study of Rattus norvegicus with 6 samples.

Results

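The miRNAs miR-15b, miR-16, miR-195 and miR-497 were compared in liver small RNA of rats with nonalcoholic fatty liver disease (NAFLD) and of normal rats. The 4 members are the mature 5p strands rno-miR-15b-5p, rno-miR-16-5p, rno-miR-195-5p and rno-miR-497-5p, of 675 mature rat miRNAs that could be told apart by their first 18 bases, 365 of which had at least 1 read. A read was given to a member when its first 18 bases equalled those of the mature sequence, which took 189 of the 1528721 different tags, a tag being a distinct read sequence with its count. The NAFLD group and the normal group each held 3 libraries, with 1 library per rat, from frozen liver of Wistar rats that the labels give as 4 months old, while the methods of the study give an older age and male sex. In the methods, rats of the high-glucose group were fasted and then fed a high-starch diet for some days, and the NAFLD livers were picked from those with higher triglycerides, while the normal rats had a standard diet and were picked at random. The model is thus a short dietary one, the groups also differ in the fast, and no allele or other agent was named for either group.

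The miR-15/16 family is known as a brake on the cell cycle. Its members share the seed, bases 2 to 8 of the miRNA, which pairs with sites in target mRNAs, and known targets include the D-type and E-type cyclins, the kinases Cdk6, Chek1 and Wee1 and the survival factor Bcl2. In the liver the family has been studied in regeneration and in the activation of stellate cells, and outside it miR-195 is known for the withdrawal of heart muscle cells from the cell cycle after birth.

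The mature sequences are printed because the shared seed makes the family and the bases after it tell the members apart; the seed is in capitals, and the sequences are those of RefSeq on build GRCr8.
rno-miR-15b-5p: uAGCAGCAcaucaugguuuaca
rno-miR-16-5p: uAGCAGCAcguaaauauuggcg
rno-miR-195-5p: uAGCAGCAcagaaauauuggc
rno-miR-497-5p: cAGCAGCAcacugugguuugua
rno-miR-322-5p: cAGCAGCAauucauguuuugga
The last, rno-miR-322-5p, is the only other mature entry of the RefSeq table with this seed and is no member. Within the first 18 bases miR-16 and miR-195 differed at 2 positions, miR-15b and miR-497 at 4, and miR-16 and miR-497 at 8. The RefSeq table held no entry for rno-miR-15a-5p, so no read could be given to that name.

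In the RefSeq entries used here, the members lie in 2 clusters of the rat genome. Mature miR-15b lies at chr2:155555197-155555218 and mature miR-16 at chr2:155555343-155555364, both on the plus strand, and their hairpin genes Mir15b and Mir16 are 51 bases apart within the span of Smc4, a gene for a condensin subunit. Mature miR-497 lies at chr10:55450172-55450193 and mature miR-195 at chr10:55450509-55450529, both on the plus strand, and Mir497 and Mir195 are 255 bases apart with no gene spanning them. Mature miR-322 lies at chrX:137726198-137726219 on the minus strand.

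Levels are given as TPM, the reads of a miRNA per 1000000 clean reads of its library. The libraries held 11601058 to 11880695 clean reads, and 1 read was worth 0.0842 to 0.0862 TPM. Of the clean reads, 76.9%, 75.7% and 79.2% were given to a mature miRNA in NAFLD 1, 2 and 3. In normal 1, 2 and 3 these shares were higher, at 86.9%, 85.7% and 91.3%. TPM does not correct for this difference between the groups, and its part in the fold changes of the members was not tested. Intervals given for shares cover counting error alone, because reads copied by PCR do not stand for separate molecules. Libraries also differed in a way the groups do not explain. The share of reads with a substitution at read position 4, taken as the median over 50 abundant tags with no tag of a member among them, was 0.0460%, 0.0431% and 0.0454% in NAFLD 1, normal 1 and normal 3, and 0.892%, 0.808% and 0.858% in NAFLD 2, NAFLD 3 and normal 2. These sets of libraries are called the low and the high substitution set, and each holds both groups. The label of liver was checked by the hepatocyte miRNA list (miR-122, miR-192 and miR-194), which summed to 473951 to 621503 TPM over the libraries.

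miR-16 was the most abundant member, and its groups overlapped. miR-16 reached 157, 44.2 and 64.8 TPM in NAFLD 1, 2 and 3 and 147, 47.5 and 119 TPM in normal 1, 2 and 3. The lowest values of both groups came from libraries of the high substitution set, so the order of the libraries followed the sets. Group means were 88.8 ± 60.3 TPM in NAFLD and 104 ± 51.2 TPM in normal livers (SD, n = 3).

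miR-195, which differs least from miR-16 in sequence, came next. Its level was 66.0, 24.2 and 30.4 TPM in the NAFLD libraries and 54.0, 21.4 and 73.4 TPM in the normal libraries. Its cluster partner miR-497 reached 40.2, 16.5 and 19.4 TPM in the NAFLD libraries and 34.1, 12.0 and 42.8 TPM in the normal libraries. For both, normal 3 was the highest library and normal 2 the lowest, so the normal group spanned the whole NAFLD group.

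miR-15b, the cluster partner of miR-16, was the least abundant member and rests on few reads. It reached 8.62, 3.32 and 5.50 TPM in the NAFLD libraries and 13.8, 2.11 and 6.73 TPM in the normal libraries, with 25 reads in normal 2 and 164 in normal 1. The normal group again held both the highest and the lowest value. miR-322, with the same seed, was at 6.03, 2.55 and 3.56 TPM in the NAFLD libraries and at 8.69, 1.35 and 4.21 TPM in the normal libraries, a level close to that of miR-15b.

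**Figure D1:**
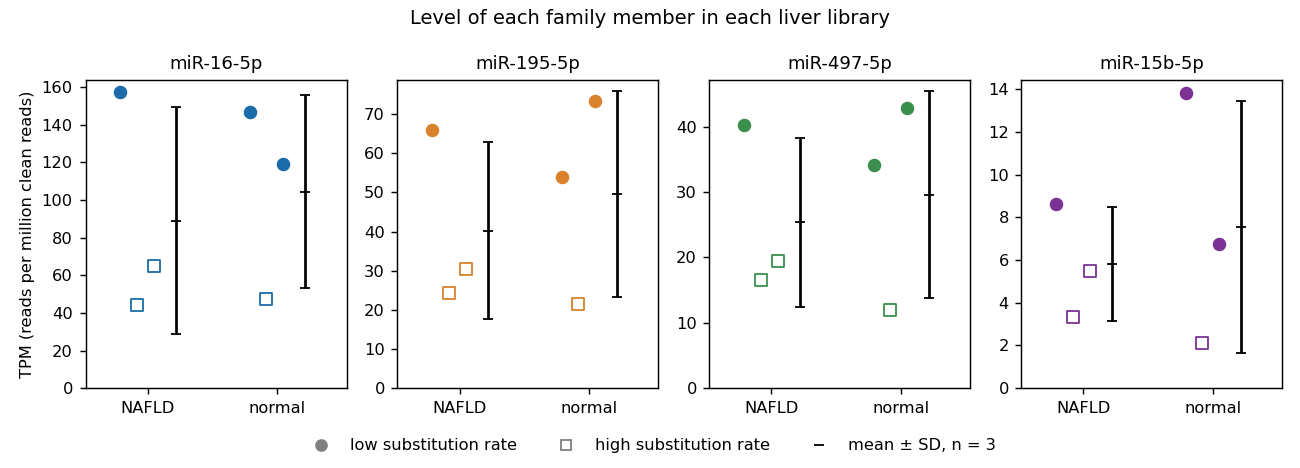
TPM of each member (vertical axes from 0, 1 panel per member with its own scale) in the 3 NAFLD and 3 normal libraries. Filled circles are libraries of the low and open squares of the high substitution set, and bars give the mean ± SD (n = 3). In every panel the groups overlap while all circles lie above all squares.

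None of the 4 members passed edgeR's quasi-likelihood test between NAFLD and normal livers. The log2 fold change of NAFLD over normal was −0.23 (SE 0.57) for miR-16, −0.30 (SE 0.54) for miR-195, −0.22 (SE 0.53) for miR-497 and −0.38 (SE 0.59) for miR-15b, with a Benjamini-Hochberg adjusted p of 0.986 for each. Each estimate was smaller than its standard error. At an unadjusted p under 0.05 the number of members was 0 as well, and it was also 0 with edgeR's TMM factors, DESeq2 and limma. The fit covered 167 miRNAs, of which 1 passed an adjusted p of 0.05 (0.599% of those tested), and 3 had an unadjusted p under 0.05. The miRNA that passed was miR-122, the main miRNA of hepatocytes, with a log2 fold change of −0.35 (SE 0.044, edgeR adjusted p = 0.000532), a call that was not made with TMM factors or by DESeq2. An effect on the members of the size of their standard errors could not be told from none with these libraries.

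The direction of the small differences turned when the substitution sets were taken into account. With the set as a covariate in the edgeR fit, the log2 fold changes were 0.22 (SE 0.23) for miR-16, 0.20 (SE 0.25) for miR-195, 0.32 (SE 0.26) for miR-497 and 0.33 (SE 0.44) for miR-15b, all above 0 and with adjusted p-values of 0.64 to 0.82. That covariate also moved the median log2 fold change of all tested miRNAs from 0.02 to 0.24, so the members' values in that fit lay near the median of all. Within the low set, where 1 NAFLD library stands against 2 normal libraries and no test is given, the log2 ratio of NAFLD over normal was 0.24 for miR-16, 0.05 for miR-195, 0.06 for miR-497 and −0.25 for miR-15b. Within the high set, with 2 NAFLD libraries against 1 normal library, it was 0.20, 0.35, 0.58 and 1.07 in the same order. The miR-15b ratio in the high set compares 39 and 65 reads with 25.

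**Figure D2:**
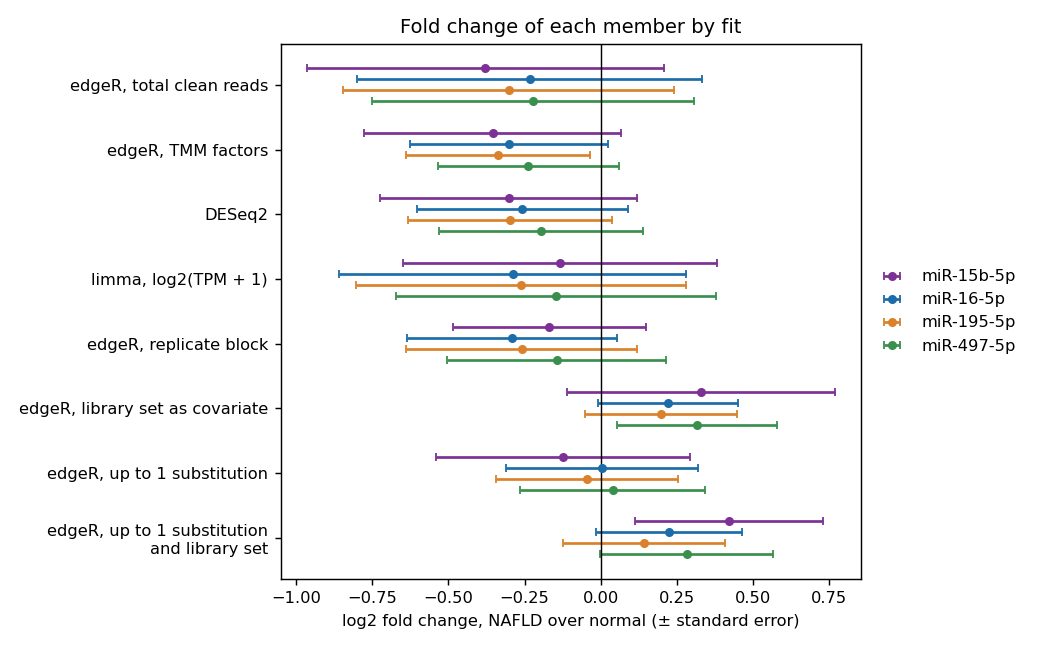
Log2 fold change of NAFLD over normal (horizontal axis) with its standard error for each member under 8 fits (rows). All 4 members lie below 0 in the fit by total clean reads and above 0 once the substitution set is a covariate, and most bars cross 0.

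Taken as a family, the 4 members summed to 272, 88.3 and 120 TPM in the NAFLD libraries and to 249, 83.0 and 242 TPM in the normal libraries. Group means of this sum were 160 ± 98.4 and 191 ± 93.8 TPM (SD, n = 3), a log2 ratio of −0.26. The ratio was 0.15 within the low set and 0.33 within the high set, so the pooled value has the opposite sign of both. In whole liver, fewer cells of a type and less RNA per cell cannot be told apart.

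Across the sets the members moved together and by a large factor. Every low-set library was above every high-set library for each member. For miR-16 the lowest low-set value was 119 TPM and the highest high-set value 64.8 TPM. For miR-15b, the closest case, these were 6.73 and 5.50 TPM. Mean levels in the low set were 2.70 times those in the high set for miR-16, 2.54 times for miR-195, 2.45 times for miR-497, 2.67 times for miR-15b and 2.54 times for miR-322. Fitted with the group in the same model, the log2 ratio of the high over the low set was −1.42 to −1.57 for the members, against a median of −0.63 (quartiles −1.02 and −0.38) over the 167 tested miRNAs. Of these, 6 had a lower ratio than all 4 members and 152 a higher ratio than all 4. The sets were defined after the data were seen and from other tags, so these ratios are a description.

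Reads with a changed base were frequent for the members in the high set. Counted here are reads with exactly 1 substitution within the first 18 bases, which the rule for members leaves out, except that C12A was left out of the miR-15b count for the reasons given with its tags. A substitution is written as the mature base, its position from 1 at the 5′ end and the read's base. In the high set 44.3% of the miR-16 reads, 46.2% of the miR-195 reads, 43.1% of the miR-497 reads and 40.8% of the miR-15b reads carried such a change. In the low set the shares were 1.39%, 1.39%, 1.85% and 0.86%. With C12A counted, miR-15b stood at 75.1% in the low and 80.6% in the high set. For miR-16 the single libraries stood at 45.0%, 43.8% and 44.4% (Wilson 95% intervals within 41.2% to 48.2%) in NAFLD 2, NAFLD 3 and normal 2. miR-322 had 39.7% in the high set. Over 162 other tested miRNAs the median was 28.8% in the high set (quartiles 18.4% and 35.2%) and 1.37% in the low set, and 18 of them were above the lowest member; no substitution was left out for these miRNAs.

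The changed bases of the members fell on a few read positions, mostly those of the seed. The share within bases 2 to 8 was not counted for other miRNAs, so it is not shown to be particular to the family. In the high set, 79.5% of the 2760 substituted reads of the members had the change between bases 2 and 8. The most frequent was A8C, at the last base of the seed, with 895 reads in the high set and 0 in the low set. C4A followed with 502 reads against 9, and A5C with 419 against 0. miR-16 and miR-195, which share their bases from position 12 on, also shared A14C and A16C, with 262 and 274 reads in the high set and 0 in the low set. In miR-497 and miR-15b, 98.6% and 98.9% of the substituted reads of the high set were changed in the seed, against 73.7% in miR-16 and 77.7% in miR-195.

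**Figure D3:**
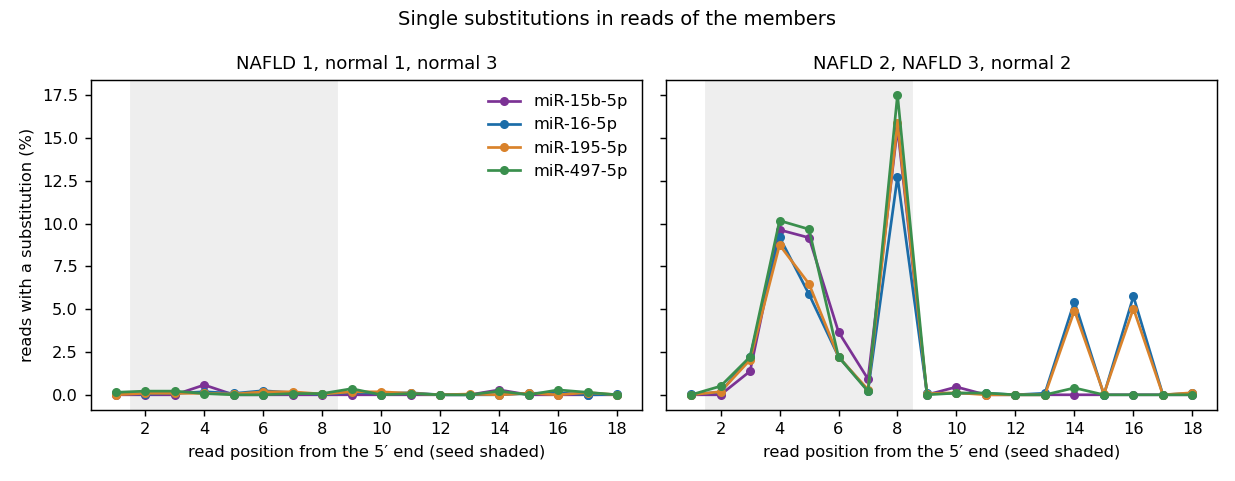
Percent of each member's reads with a single substitution (vertical axis) by read position from the 5′ end (horizontal axis), with C12A of miR-15b left out, for the low set (left) and the high set (right); lines are members and the seed is shaded. In the low set every plotted position stays under 1%, while in the high set the peaks at positions 4, 5 and 8 are shared by all members and those at 14 and 16 by miR-16 and miR-195.

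Counting reads with up to 1 substitution brought the libraries closer without separating the groups. miR-16 then reached 160, 80.4 and 115 TPM in the NAFLD libraries and 149, 85.3 and 121 TPM in the normal libraries. miR-195 reached 66.9, 41.4 and 57.6 TPM in the NAFLD libraries and 54.8, 42.1 and 74.2 TPM in the normal libraries. miR-497 reached 40.7, 29.4 and 32.9 TPM in the NAFLD libraries and 34.7, 21.7 and 43.9 TPM in the normal libraries. The ratio of the low to the high set fell to 1.53 for miR-16, 1.39 for miR-195 and 1.42 for miR-497, and the log2 fold changes of NAFLD over normal became 0.01 (SE 0.31), −0.04 (SE 0.30) and 0.04 (SE 0.30). The part of the substitutions in the remaining gap between the sets was not tested.

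Tags that differ from miR-15b by C12A were frequent in both sets and are kept apart; C12A is used here only to say how they differ, and their values go against reading them as changed reads of miR-15b. Tags whose first 18 bases were those of miR-15b but for C12A held 1479 reads, against 473 for miR-15b itself, with 1033 in the low and 446 in the high set. The leading tags are printed to show that they also end differently from miR-15b, with the base at position 12 in capitals.
leading C12A tag: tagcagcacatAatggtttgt
C12A tag of 22 bases: tagcagcacatAatggtttgtg
Of the 860 reads of these tags with at least 22 bases, 0 carried the end of miR-15b, which 181 of 192 such miR-15b reads did. Together they reached 29.9, 12.7 and 16.3 TPM in the NAFLD libraries and 26.2, 8.76 and 31.6 TPM in the normal libraries, 1.90 to 4.69 times the level of miR-15b in the same library. Groups overlapped, with means of 19.6 ± 9.08 and 22.2 ± 11.9 TPM (SD, n = 3), and the mean of the low set was 2.32 times that of the high set. With up to 1 substitution allowed, these tags made up 94.1% of the reads added to miR-15b, so such a count of miR-15b is mostly a count of them. They matched no entry of the reference table used and were given no name. That table held no entry for rno-miR-15a-5p, so whether these tags are its reads was not tested. They carry the family's seed, so the family sum and the shares of the 4 members leave out a same-seed sequence more abundant than miR-15b. When they were added to the total of the 4 members they took 9.55% to 12.6% over the libraries, 11.5 ± 1.40% in NAFLD and 10.2 ± 1.14% in normal livers (SD, n = 3), while miR-16 took 43.6% to 53.4% and miR-15b 2.30% to 5.04%, and the order of the 4 members was kept.

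Within each library the members kept 1 order of abundance. miR-16 led, followed by miR-195, miR-497 and miR-15b, in 6 of 6 libraries. Mature lengths differ by 1 base at most, so reads were compared without scaling to length. miR-16 took 57.8%, 50.1% and 54.0% of the family reads in NAFLD livers, against 59.0%, 57.3% and 49.3% in normal livers. miR-195 took 24.2%, 27.5% and 25.3% in NAFLD livers, against 21.7%, 25.8% and 30.3% in normal livers. The lowest miR-16 share and the highest miR-195 share were both in normal 3, with Wilson 95% intervals of 47.4% to 51.1% and 28.7% to 32.0%.

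The rest of the family reads belonged mainly to miR-497. Its share was 14.8%, 18.7% and 16.1% in NAFLD livers, against 13.7%, 14.4% and 17.7% in normal livers. miR-15b took 3.17%, 3.76% and 4.58% in NAFLD livers, against 5.57%, 2.54% and 2.78% in normal livers, with Wilson 95% intervals from 1.72% to 3.72% in normal 2 and from 4.80% to 6.45% in normal 1. Those intervals did not overlap, but they do not allow for reads copied by PCR. The part of counting error in this range was not tested.

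None of the shares passed a test between the groups. Differences of NAFLD minus normal were −1.20 percentage points for miR-16 (54.0 ± 3.87% against 55.2 ± 5.20%, SD, n = 3), −0.27 for miR-195 (25.7 ± 1.64% against 25.9 ± 4.29%), 1.26 for miR-497 (16.5 ± 2.00% against 15.3 ± 2.10%) and 0.21 for miR-15b (3.83 ± 0.71% against 3.63 ± 1.68%). Two-sided exact permutation tests gave p = 0.8, 0.9, 0.5 and 0.9, and 0.9 for each after Benjamini-Hochberg adjustment over the 4 shares, where 3 libraries against 3 cannot go below 0.1. Within the low set the differences were 3.71, −1.77, −0.93 and −1.01 points in the same order, and within the high set −5.22, 0.59, 3.00 and 1.63 points. Each of the 4 shares thus had opposite signs in the 2 sets. Unlike the levels, the mean shares were close between the sets, at 55.4% and 53.8% for miR-16 and 3.84% and 3.63% for miR-15b.

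**Figure D4:**
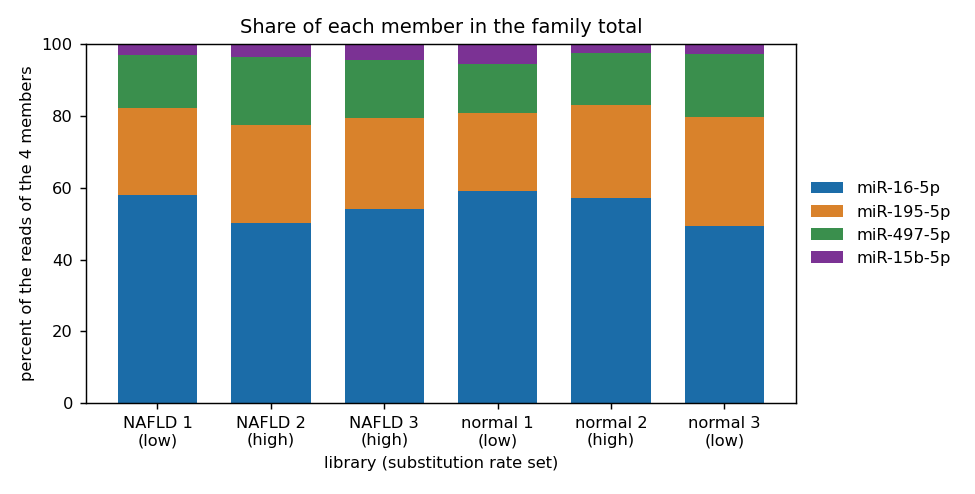
Percent of the reads of the 4 members (vertical axis) taken by each member in each library (horizontal axis, with the substitution set in brackets). miR-16 takes 49.3% to 59.0%, followed in every bar by miR-195, miR-497 and miR-15b.

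The members of the cluster on chromosome 10 kept the steadiest ratio. miR-195 was 1.47 to 1.79 times miR-497 over the 6 libraries, a coefficient of variation of 6.99%. The ratio of the members listed on chromosome 2 varied more, as miR-16 was 10.6 to 22.6 times miR-15b, a coefficient of variation of 29.1%. Mature reads do not show their locus, and whether all miR-16 reads came from that cluster was not tested. miR-15b rests on 25 to 164 reads per library, and the part of counting error in that spread was not tested. miR-16 over miR-195, from different clusters, ranged from 1.63 to 2.72, and miR-497 over miR-15b from 2.46 to 6.35. With miR-322 added to the total, miR-322 took 1.60% to 3.38% and the order of the 4 members was kept.

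The 3′ ends of the reads differed by member. The leading tags are printed because they show which end the liver reads carry, with the seed in capitals.
miR-16, 22 bases: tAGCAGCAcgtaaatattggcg
miR-16, 23 bases: tAGCAGCAcgtaaatattggcgt
miR-195, 22 bases: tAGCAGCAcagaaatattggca
miR-195, 23 bases: tAGCAGCAcagaaatattggcat
miR-497, 21 bases: cAGCAGCAcactgtggtttgt
miR-15b, 22 bases: tAGCAGCAcatcatggtttaca
For miR-16 the mature form of 22 bases held 61.2% of the reads and the form with 1 more base, T, which the hairpin also has, held 18.8%. For miR-195 the leading form, 42.1% of the reads, was 1 base longer than the mature sequence and matches the hairpin, and 25.9% had a further T that the hairpin does not have. Reads of exactly the mature miR-195 were rare, at 0.65% to 1.67% over the libraries. miR-497 was led by a form 1 base shorter than mature, with 57.0% of the reads, and 21.2% were the mature form. For miR-15b, whose hairpin was not used here, the mature form held 35.9% and forms of 21 and 20 bases 26.9% and 22.6%.

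Bases added to the 3′ end, which the hairpin does not encode and which tailing enzymes are known to attach, were most frequent on miR-195. An added T was found on 27.4% to 36.6% of its reads and an added A on 17.5% to 22.2%. On miR-16 an added A was found on 8.51% to 14.5% of the reads and an added T on 1.54% to 3.52%. miR-497 carried an added T on 10.5% to 17.6%. Added ends were alike in the substitution sets, with means for the added T of miR-195 of 30.6% in the low and 32.3% in the high set.

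Of 16 comparisons of 3′ forms between NAFLD and normal livers, none passed. Both with the smallest p the design allows, 0.1 in the two-sided exact permutation test (0.6 after adjustment over the 16), concerned miR-497. Its reads with an added T were 10.5%, 10.8% and 10.5% in NAFLD livers, against 11.6%, 17.6% and 14.2% in normal livers. Its reads of exactly mature form were 19.5%, 20.1% and 20.1% in NAFLD livers, against 20.8%, 24.6% and 22.8% in normal livers. NAFLD was lower in both cases without overlap, with differences of −3.86 and −2.85 percentage points. Among 16 comparisons, some reach a p of 0.1 without a difference between the groups. Outside the 16, templated reads, other tails, longer-than-mature reads and mean length were described for each member without a test. Groups did not overlap for the templated reads of miR-497, higher in NAFLD. They also did not for the mean length and longer-than-mature reads of miR-15b, lower in NAFLD. The rest of these measures overlapped. Templated reads are those left by added A, added T and other tails, so those of miR-497 are not separate from its added T. Mean length and longer reads are not separate either, and miR-15b rests on 25 to 164 reads per library. The difference in added T of miR-497 was −2.39 points within the low set and −6.95 points within the high set. The normal 2 value of 17.6% rests on 142 reads.

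**Figure D5:**
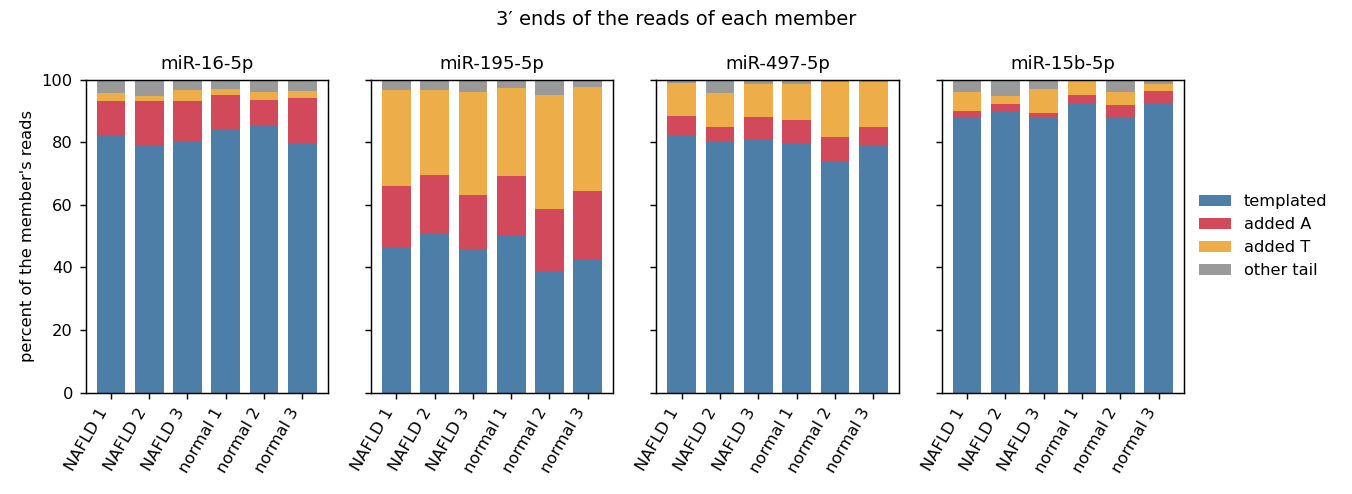
Percent of each member's reads (vertical axis, 1 panel per member) by the kind of 3′ end in each library (horizontal axis); templated ends match the hairpin or, for miR-15b, the mature sequence. miR-195 has the largest part of added T and added A, and miR-497 has less added T in each NAFLD library than in any normal library. That difference did not pass its test.

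The 5′ ends were nearly fixed, and with them the seed. miR-15b had 0 reads starting 1 or 2 bases into the mature sequence, miR-16 had 4 reads with a start within 2 bases of the mature start against 6832 at it, and miR-195 had 4 against 3176. miR-497 was the exception, as 78 reads started 1 base later, which is 4.01% of the 1943 at the mature start. These reads were found in all 6 libraries, with 7 to 18 reads in each. The other strand of the hairpins was almost unread, with 7 reads of miR-16-3p, 8 of miR-195-3p, 16 of miR-15b-3p and 0 of miR-497-3p over all libraries. A count of 0 allows up to 3 reads, or 0.253 to 0.259 TPM in a library.

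The miRNAs whose level was most like that of each member over the 6 libraries were taken among 84 tested miRNAs with a mean of at least 10 TPM, by Pearson's r of log2(TPM + 1). For miR-16 this was miR-26a-5p (r = 0.999), for miR-195 miR-125b-5p (r = 0.989), for miR-497 miR-148a-3p (r = 0.985) and for miR-15b miR-22-3p (r = 0.982). Among the members, r was 0.992 for miR-195 and miR-497 and 0.905 for miR-16 and miR-15b. miR-16 was more like miR-195 (0.946) and miR-497 (0.939) than like miR-15b. All of these points share the split into sets, so they are given as a description with no test. miR-26a-5p, for example, was at 2136, 892 and 1100 TPM in the NAFLD libraries and at 2017, 890 and 1736 TPM in the normal libraries.

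Other miRNAs known to act on the cell cycle were listed for comparison (the miR-34 and miR-449 group, the miR-17 group, miR-221 and miR-222, let-7, miR-24 and miR-503). Of 14 listed, 12 were tested and 0 passed in either direction in edgeR, DESeq2 or limma. At an unadjusted p under 0.05 the number was 0 in edgeR and limma. It was 1 in DESeq2, with TMM factors and in edgeR with the substitution set as a covariate. The list had a median log2 fold change of 0.12 against 0.02 over all tested miRNAs. The closest to the family is miR-503-5p, encoded beside miR-322, which was at 29.0, 19.3 and 22.8 TPM in the NAFLD libraries and at 21.7, 9.52 and 23.8 TPM in the normal libraries (log2 fold change 0.37, SE 0.44, edgeR adjusted p = 0.986). With the substitution set as a covariate in edgeR, miR-503-5p had a log2 fold change of 0.74 (unadjusted p = 0.022, adjusted p = 0.239). In that fit the list had a median of 0.25 against 0.24 over all tested miRNAs. miR-34c-5p, known as a target of p53, had a log2 fold change of −0.72 (SE 0.45) with groups that overlapped.

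miRNAs that mark other cells of the liver were summed beside the members. Blood is a known source of miR-16, and the erythroid miRNAs (3 of 4 matched: miR-451, miR-144-3p and miR-144-5p) summed to 27.0 to 76.3 TPM in NAFLD and 30.8 to 50.4 TPM in normal livers, with no member at 0. In the tests 0 of these 3 passed. At an unadjusted p under 0.05 there was 1 in DESeq2, with TMM factors and with the substitution set as a covariate. In the covariate fit in edgeR it was miR-144-3p, with a log2 fold change of 1.29 (unadjusted p = 0.0027, adjusted p = 0.11). Without the covariate it had 0.91 (SE 0.49), and its groups overlapped. The leukocyte list (4 of 5 matched) summed to 7.48 to 15.3 and 3.96 to 13.4 TPM, and the endothelial list (2 of 2) to 23.5 to 48.4 and 14.7 to 41.1 TPM. The smooth muscle list (2 of 2) summed to 128 to 219 and 129 to 277 TPM. No tested miRNA of the leukocyte, endothelial and smooth muscle lists passed. At an unadjusted p under 0.05 there was 1, of the endothelial list with the substitution set as a covariate. The stellate and fibroblast list (3 of 3) summed to 404 to 446 TPM in NAFLD and 213 to 390 TPM in normal livers without overlap. Nearly all of that sum was miR-199a-3p, at 439, 400 and 430 TPM in NAFLD and 294, 210 and 384 TPM in normal livers, while miR-199a-5p and miR-214-3p overlapped between the groups. In the test, 0 of the 3 miRNAs of the stellate list passed in edgeR, DESeq2 or limma. At an unadjusted p under 0.05 the number was 0 in these, and 1 with TMM factors and with the substitution set as a covariate. In the covariate fit in edgeR this was miR-199a-3p, with a log2 fold change of 0.67 (unadjusted p = 0.0073, adjusted p = 0.15). The hepatocyte list also summed without overlap, to 473951 to 481313 TPM in NAFLD and 582734 to 621503 TPM in normal livers. Most of that sum was miR-122, whose test is given above. How many of all tested miRNAs had groups without overlap is not given here. Of the biliary and other epithelial list, 1 of 4 was matched, at no more than 0.169 TPM. Between the sets, the mean sum of the low set was the higher for each of these lists. It was 43.4 against 22.3 TPM for the endothelial, 233 against 136 TPM for the smooth muscle, 52.5 against 39.2 TPM for the erythroid, 11.9 against 8.92 TPM for the leukocyte and 378 against 351 TPM for the stellate list. The hepatocyte list had 559396 against 518766 TPM, and the single epithelial miRNA 0.113 against 0.056 TPM. Their part in the levels of the members was not tested.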

How the data were processed

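Small RNA of 18 to 30 nt from the liver of 3 NAFLD and 3 normal Wistar rats was sequenced by the authors, who removed low-quality, adaptor-less, poly A and short reads and deposited, per library, the tags that were left with their read counts. The deposited counts are raw and include tags with no match to the genome; the submitters' processing notes name Rnor_5.0 and rn5, which were not used. The members and lists were chosen with earlier results of these data known.

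Tags were assigned to mature miRNAs of RefSeq (GRCr8) by their first 18 bases. Of 693 mature names, 7 were under 18 bases, and names with equal first 18 bases were merged. The main test was edgeR (version 4.0.16, R 4.3.3; filterByExpr, glmQLFit and glmQLFTest, library size equal to the clean reads, Benjamini-Hochberg adjustment over all tested miRNAs, threshold 0.05). Standard errors are the absolute log2 fold change over the square root of F. Alternatives included limma 3.58.1 on log2(TPM + 1) and log2(TPM + 0.1), and DESeq2 1.42.0. Shares and 3′ forms were compared by two-sided exact permutation tests. The substitution sets are the libraries on either side of the widest gap in that rate. The fit was also run on simulated data that held no substitution sets, so that run does not cover the split of libraries seen here. Replicates were separate rats, and no pair of libraries within a group agreed within sampling noise. Named miRNAs were the members, the other same-seed miRNA, their other strands, the listed miRNAs and, per member, the most alike. With 985 to 3159 family reads in a library, counting error matters mainly for miR-15b. Counting and permutation tests ran in Python 3.11.15 with scipy 1.17.1, numpy 2.4.6 and pandas 2.3.3.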

Additional observations from a re-analysis of the deposited data

How the results depend on the processing

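In all 68 alternative fits of the 4 members (17 for each) the adjusted p stayed above 0.05, the smallest being 0.596, but the sign of the log2 fold change did not hold. It was above 0 for miR-15b, miR-16, miR-195 and miR-497 with the substitution set as a covariate (0.33, 0.22, 0.20 and 0.32) and with that covariate and up to 1 substitution, chosen after seeing the data (0.42, 0.22, 0.14 and 0.28). With up to 1 substitution alone it was 0.01 for miR-16 and 0.04 for miR-497. Leaving out 1 library at a time gave −0.82 to 0.39 for miR-15b, −0.94 to 0.09 for miR-16, −0.86 to 0.09 for miR-195 and −0.72 to 0.14 for miR-497; the sign turned without normal 1 for miR-15b and miR-16, without normal 3 for miR-195 and miR-497 and without NAFLD 2 for miR-16 and miR-497. The number of miRNAs with an adjusted p under 0.05, 1 in the fit by clean reads, was 0 with TMM factors (12 at an unadjusted p under 0.05), 1 to 2 when 1 library was left out, the 2 without NAFLD 1, and 4 with up to 1 substitution and the covariate.

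The shares changed sign in part. With the full mature sequence the differences were −0.21, 0.097, 0.50 and −0.39 percentage points for miR-15b, miR-16, miR-195 and miR-497, and with up to 1 substitution, which mostly counts the C12A tags, −0.37 for miR-15b. Within the low set miR-15b was at −1.01, miR-16 at 3.71 and miR-497 at −0.93, and within the high set miR-195 was at 0.59. Leaving out 1 library gave −0.34 to 1.18 for miR-15b, −4.16 to 0.74 for miR-16 and −2.38 to 1.91 for miR-195. Of 16 3′ forms, 13 kept their sign when 1 library was left out; the others were the added A of miR-16 (−0.079 to 2.90), exactly mature miR-195 (−0.33 to 0.18) and shorter miR-195 (−0.63 to 0.89). The log2 ratio of the family sum moved by less than the spread between replicates (0.87) in each of 12 alternatives. That spread is larger than the ratio itself (−0.26), so its sign could turn within it. It did so within the low set (0.15) and the high set (0.33). The cause of these changes was not tested.

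The replicate numbers of the labels did not pair the libraries: same-numbered libraries deviated together with r = 0.15, 0.34 and −0.54. With a replicate block the log2 fold changes were −0.17, −0.29, −0.26 and −0.14 for miR-15b, miR-16, miR-195 and miR-497, and 1 miRNA had an adjusted p under 0.05. miR-15b, at 25 to 164 reads per library, is the value that depth limits most.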
